A study of Homo sapiens with 20 samples.

Results

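The SR splicing factors described here were the 10 genes SRSF1, SRSF2, SRSF3, SRSF4, SRSF5, SRSF6, SRSF7, SRSF10, SRSF11 and TRA2A. They were picked as a list of gene symbols, drawn up with earlier results of these data known, out of 60719 genes in the gene table, and the isoform table held 117 of their transcripts out of 232184. All 10 genes passed the low-count filter, as did 89 of the 117 isoforms. Every one of the 10 symbols belongs to an SR or SR-related protein, so the label and the rule describe the same genes.

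SR proteins bind exonic enhancers in pre-mRNA through RNA recognition motifs and contact the spliceosome through a domain rich in arginine and serine, the RS domain, which SRPK and CLK kinases phosphorylate. Several SR genes make, beside their coding mRNA, transcripts that keep an intron or include a "poison" exon with a premature stop codon. Such transcripts are held in the nucleus or removed by nonsense-mediated decay, and several SR proteins promote these events in their own pre-mRNA. In T cells, engaging the antigen receptor is known to change the splicing of many transcripts.

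RNA sequencing was done in 20 libraries of Jurkat cells, a human T lymphoblast line, 10 from WT cells and 10 from the CD47-deficient somatic mutant JinB8 (CD47-), which stands for CD47 deficiency as a single derived line. CD47 is a cell surface receptor for thrombospondin-1 (TSP1), a secreted matrix protein. Cells of each line were kept for 1, 3 or 6 h on plates that carried antibodies to CD3 and to CD28 (CD3+CD28), on such plates with 1 μg/mL TSP1 (CD3+CD28+TSP1), or with TSP1 alone (TSP1), and a single library was made of each, beside an untreated one at 1 h. All cells were in serum-free medium, the anti-CD28 coat was 4 μg/mL, and no untreated library belongs to 3 or 6 h. Each combination of line, treatment and time was a single library, so the libraries of different treatments at 1 time served as the replicates of that time. The p-values therefore measure only the spread between these libraries, and a change over time cannot be told apart from any step of handling that was done separately at each time. Values of single libraries are listed in the order untreated (1 h only), CD3+CD28, CD3+CD28+TSP1 and TSP1.

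The libraries held 20483642 to 31737616 counts in WT cells and 16107921 to 28525524 in CD47- cells. CD47 itself was at 253 to 372 CPM (counts scaled to library size) in WT libraries and at 124 to 165 CPM in CD47- libraries, so its RNA was lower but present in the mutant. All 10 T lymphoblast markers examined were detected in both lines, though some differed in level. The medians in WT and CD47- cells were 162 and 22.9 CPM for TRAC and 208 and 108 CPM for ZAP70. They were 50.8 and 232 CPM for CD28 and 46.04 and 115 CPM for CD2. The part of these differences in the results was not tested. Of markers of other cells, the myeloid genes CD14, ITGAM, CSF1R and LYZ reached at most 1.09 CPM in any library, the fibroblast genes COL1A1, COL1A2, COL3A1 and PDGFRB at most 8.93 CPM (PDGFRB in CD47- cells), and the B cell genes MS4A1 and CD79B at most 0.163 and 3.56 CPM. CD79A, a B cell receptor component, had medians of 41.3 CPM (WT) and 6.26 CPM (CD47-), and PDGFRB of 0.917 and 5.97 CPM, and their part in the results was not tested. The CD47- CD3+CD28+TSP1 library at 3 h stood apart: it was the shallowest (16107921 counts) and had the lowest mean correlation with the other libraries of its group (0.981). Calls that change without it, and the larger shifts of value, are given beside the results.

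The sequences that matter for the transcripts without a coding class come first. The 3 introns below are kept, in part or whole, in the most abundant intron-retaining isoforms of SRSF10, SRSF5 and SRSF4. Each line shows 3 exon bases and 20 intron bases at an intron end on the coding strand, read from GRCh38, with the terminal intron bases in capitals. SRSF10 lies at chr1:23964347-23980927 on the minus strand, SRSF5 at chr14:69726900-69772005 on the plus strand and SRSF4 at chr1:29147743-29181900 on the minus strand.
SRSF10 intron 2, 5′ end: tcaATatcctttcttcagatggc
SRSF10 intron 2, 3′ end: agccccttaacatttagcACatt
SRSF5 intron 5, 5′ end: cagGTttgttgaaatacagtttt
SRSF5 intron 5, 3′ end: cacaattatcttgtgttaAGgat
SRSF4 intron 2, 5′ end: gcaGTaagcattcaaagggcata
SRSF4 intron 2, 3′ end: tttatttgaaccttccaaAGgtg

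SRSF10 intron 2 (chr1:23975078-23978712, 3635 bases) begins with AT and ends with AC, and its first bases, ATATCCTT, are the letters of the 5′ splice site that the minor, U12-dependent spliceosome uses. Of 58 introns in the main coding transcripts of the members, it was the only AT-AC intron, and the other 57 were GT-AG. Among 97760 introns of protein coding transcripts on the same chromosomes, 88 (0.09%) were AT-AC and 98.5% were GT-AG. Isoform SRSF10-213 covers 2575 bases of this intron. SRSF5 intron 5 (chr14:69769252-69770466, 1215 bases) is whole in both SRSF5-207 and SRSF5-212, and SRSF4 intron 2 (chr1:29159487-29160374, 888 bases) is whole in SRSF4-207. SRSF4-207 also covers stretches of 4992, 138 and 175 bases of SRSF4 intron 1 (21128 bases), so its counts are not those of intron 2 alone.

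The stretches below run from the start of an exon of 3 decay isoforms to the in-frame stop codon, which is in capitals. They are shown because these isoforms were called or abundant in the tests that follow. In SRSF3-203 (chr6:36599821-36599854, plus strand) the exon of 456 bases lies inside an intron of the main transcript. In SRSF5-211 (chr14:69769511-69769561, plus strand) the exon starts inside intron 5. In SRSF7-208 (chr2:38749516-38749705, minus strand) the exon runs on through the whole of intron 3, and the stop codon lies just past the point where the main transcript is spliced.
SRSF3-203: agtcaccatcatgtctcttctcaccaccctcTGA
SRSF5-211: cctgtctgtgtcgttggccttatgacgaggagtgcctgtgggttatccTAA
SRSF7-208: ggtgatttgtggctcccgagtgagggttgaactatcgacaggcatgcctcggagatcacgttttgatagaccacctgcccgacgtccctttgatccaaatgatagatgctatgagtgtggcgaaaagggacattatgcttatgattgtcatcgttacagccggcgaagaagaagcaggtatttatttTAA

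Per transcript length, SRSF2, SRSF5 and SRSF3 were the most abundant of the 10 and SRSF4 the least. Over the 10 WT libraries the mean level was 257 ± 22.9 TPM (counts divided by transcript length and scaled to a common total) for SRSF2, 237 ± 61.5 TPM for SRSF5 and 230.3 ± 35.1 TPM for SRSF3 (SD, n = 10). SRSF10, SRSF1 and SRSF7 followed at 166 ± 23.5, 149 ± 34.6 and 119 ± 20.98 TPM. SRSF6 and SRSF11 were at 98.5 ± 10.99 and 97.2 ± 22.4 TPM, TRA2A at 58.1 ± 9.52 TPM and SRSF4 at 46.5 ± 6.48 TPM. Neighbours in this order were closer to each other than the larger of their SDs, except TRA2A and SRSF4, SRSF11 and TRA2A, and SRSF3 and SRSF10. In CD47- cells the level of SRSF7, a zinc-knuckle SR protein, was 147 ± 27.02 TPM and that of SRSF4 46.6 ± 10.3 TPM, and SRSF3 (234 ± 23.8 TPM) stood above SRSF2 (228 ± 26.1 TPM), a difference smaller than their SDs. All further gene levels are CPM scaled by TMM factors, which allow comparison between libraries but not between genes.

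From 1 to 6 h the members moved in both directions at once. SRSF1 and SRSF7 rose in both lines, SRSF4, SRSF5, SRSF11 and TRA2A fell in both lines, SRSF10 was called in neither, and SRSF2, SRSF3 and SRSF6 were called in a single line each. In WT cells 7 of the 10 members were called at an adjusted p under 0.05, 3 higher and 4 lower, where 53.4% of all 16327 genes tested were called. In CD47- cells 8 were called, 4 higher and 4 lower, where 53.9% of all genes were called. The members' share of calls was thus above the background but not far from it, and the median log2 fold change over the members was 0.06 in WT and 0.01 in CD47- cells, against -0.01 over all genes in both. All tests of gene levels used edgeR's quasi-likelihood test with Benjamini-Hochberg adjustment over the 16327 genes, and the gene level cannot tell fewer RNA molecules per cell from fewer cells of a state.

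**Figure D1:**
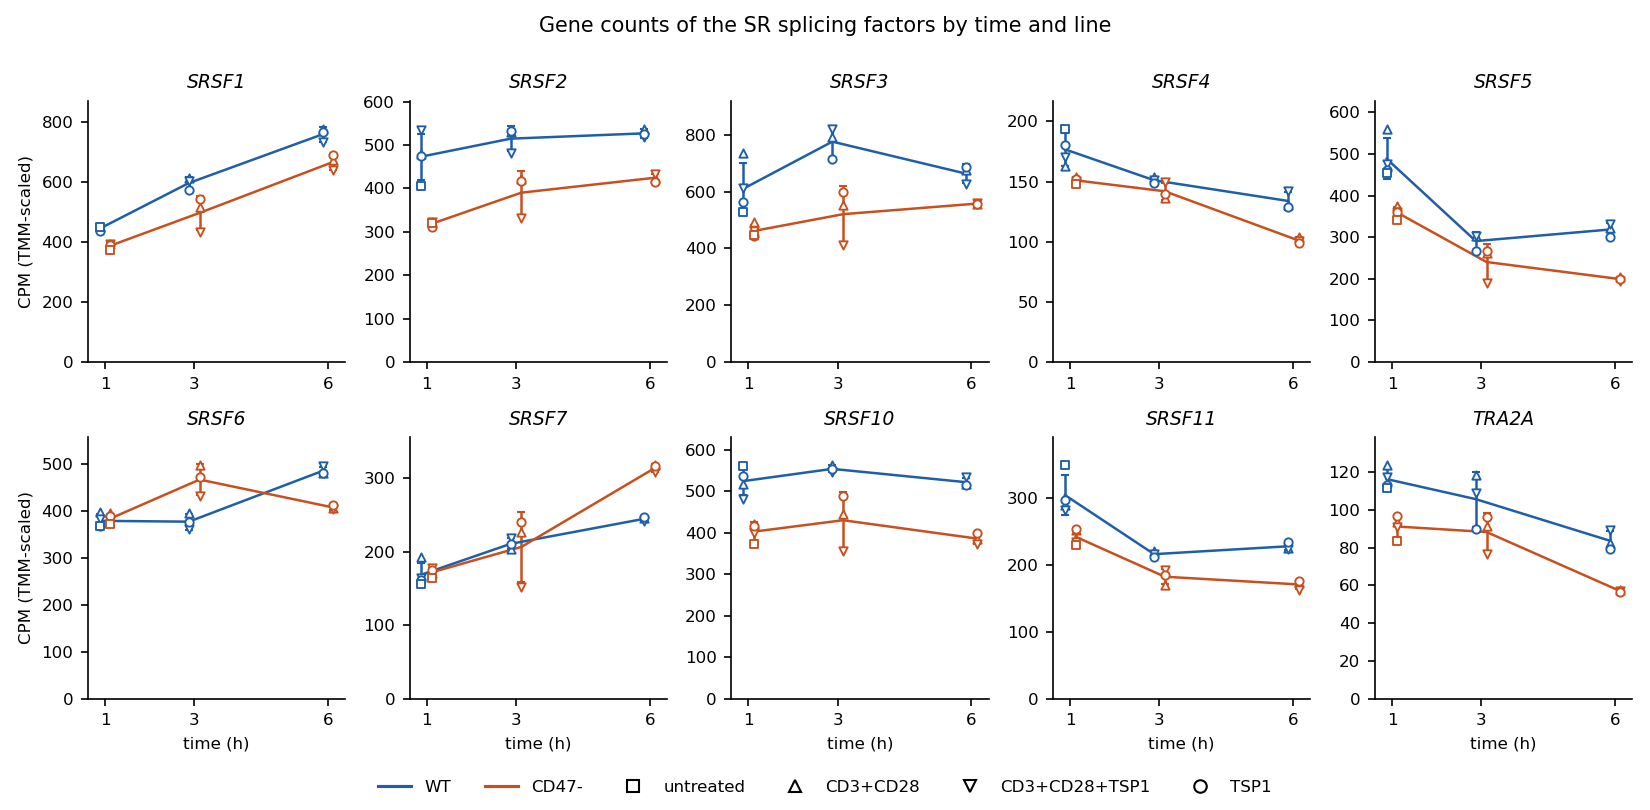
Gene level of each SR splicing factor in TMM-scaled CPM (vertical axis, from 0) against time in hours, with WT cells in blue and CD47- cells in orange. Symbols are single libraries by treatment, lines join the group means and bars are SD (n = 4 at 1 h, n = 3 at 3 and 6 h). SRSF1 and SRSF7 climb in both lines, SRSF4, SRSF5, SRSF11 and TRA2A decline, and the CD47- CD3+CD28+TSP1 library at 3 h lies apart from its group in several panels.

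SRSF1 (SF2/ASF), which has a pair of RNA recognition motifs and promotes the use of nearby splice sites, had the steadiest rise. Its WT libraries were at 452, 449, 440.3 and 439 CPM at 1 h, 614, 604 and 574 CPM at 3 h and 778, 732 and 769 CPM at 6 h. Its CD47- libraries were at 373, 395, 394 and 390.2 CPM at 1 h, 516, 434 and 543 CPM at 3 h and 672, 639 and 691 CPM at 6 h. No library of an earlier time reached any library of a later time in either line. The rise from 1 to 6 h was 1.71-fold in WT (log2 0.77 ± 0.067 SE, adjusted p = 9.34e-09 by edgeR) and 1.72-fold in CD47- cells (log2 0.78 ± 0.067 SE, adjusted p = 6.68e-09).

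SRSF7, which carries a zinc knuckle beside a single RNA recognition motif, rose in both lines. The rise was larger in CD47- cells, a difference that did not pass with all libraries. WT libraries were at 157, 193, 165 and 161 CPM at 1 h and 245, 242 and 248 CPM at 6 h, with 203, 218 and 211 CPM between. CD47- libraries were at 165, 171, 177 and 176 CPM at 1 h and 318, 309 and 317 CPM at 6 h. At 3 h they were at 228, 152 and 240.1 CPM, the CD3+CD28+TSP1 library being below every other library of that line. The change from 1 to 6 h was 1.45-fold in WT (log2 0.54 ± 0.11 SE, adjusted p = 0.000235 by edgeR) and 1.83-fold in CD47- cells (log2 0.87 ± 0.10 SE, adjusted p = 7.36e-07). The test of the difference between the lines gave log2 0.33 ± 0.15 SE, adjusted p = 0.141 by edgeR, which did not pass, and without the CD47- CD3+CD28+TSP1 library at 3 h it gave log2 0.33 with adjusted p = 0.00983, which did.

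SRSF5, SRSF4, SRSF11 and TRA2A declined. SRSF5, an SR protein with a pair of RNA recognition motifs, fell early in WT cells, from 455, 561, 477 and 461 CPM at 1 h to 303, 303 and 266 CPM at 3 h, and was at 323, 332 and 301 CPM at 6 h. In CD47- cells it went from 341, 376, 360.2 and 359.7 CPM through 263, 191 and 268 CPM to 204, 194 and 199.8 CPM. The 1 h libraries lay above all later ones in each line. By 6 h the level was 0.652 of that at 1 h in WT (log2 -0.62 ± 0.10 SE, adjusted p = 2.65e-05 by edgeR) and 0.555 of it in CD47- cells (log2 -0.85 ± 0.10 SE, adjusted p = 5.06e-07).

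SRSF4, whose RS domain is long, was at 194, 163, 171 and 180.3 CPM in WT cells at 1 h and 131, 142 and 129 CPM at 6 h, and at 148, 154, 150.5 and 152 CPM and 104, 100.4 and 98.6 CPM in CD47- cells. It fell by 0.40 on the log2 scale in WT (adjusted p = 1.47e-05 by edgeR) and by 0.58 in CD47- cells (adjusted p = 1.27e-07). SRSF11, an SR-related protein with a single RNA recognition motif, reached its lower level by 3 h and was called in neither line between 3 and 6 h. Its WT means were 305 ± 30.4, 216 ± 4.67 and 228 ± 5.703 CPM at 1, 3 and 6 h (SD, n = 4, 3 and 3), and its CD47- means 242 ± 12.3, 182 ± 11.3 and 171 ± 6.89 CPM. TRA2A, a Transformer-2 homologue with RS domains on both sides of its RNA recognition motif, kept most of its level at 3 h and fell between 3 and 6 h. Its means were 116 ± 5.52, 106 ± 14.6 and 83.7 ± 5.26 CPM in WT and 91.2 ± 5.59, 88.3 ± 10.2 and 56.95 ± 0.594 CPM in CD47- cells. From 1 to 6 h SRSF11 fell by 0.42 in WT and by 0.50 in CD47- cells on the log2 scale, and TRA2A by 0.47 and by 0.68, all past the threshold by edgeR (adjusted p = 4.99e-05, 5.52e-06, 0.000124 and 2.03e-06).

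Of the remaining members, SRSF2, SRSF3 and SRSF6 were called in a single line and SRSF10 in neither. SRSF6, another SR protein with a pair of RNA recognition motifs, had WT libraries at 368, 398, 382 and 369 CPM at 1 h, 395, 361 and 376 CPM at 3 h and 480.4, 496 and 481 CPM at 6 h. Its CD47- libraries were at 373, 395, 380.4 and 388 CPM at 1 h, 498, 432 and 472 CPM at 3 h and 406, 404 and 413 CPM at 6 h, so they were highest at 3 h while WT cells were highest at 6 h. In WT the gain from 1 to 6 h was log2 0.36 ± 0.058 SE, adjusted p = 3.12e-05 by edgeR, and in CD47- cells log2 0.086 ± 0.058 SE, adjusted p = 0.228. SRSF2 (SC35), a nuclear speckle protein, had means of 473 ± 52.9, 515 ± 28.5 and 527 ± 10.1 CPM in WT and 319 ± 6.04, 390.2 ± 50.7 and 425 ± 9.52 CPM in CD47- cells. SRSF3, the smallest SR protein, had means of 610.1 ± 90.7, 776 ± 55.9 and 663 ± 32.9 CPM in WT and 462 ± 21.96, 521 ± 98.04 and 558 ± 1.76 CPM in CD47- cells. From 1 to 6 h the CD47- cells gained log2 0.41 ± 0.085 SE, adjusted p = 0.000364 in SRSF2 and log2 0.27 ± 0.11 SE, adjusted p = 0.0429 in SRSF3 by edgeR, and the WT values were log2 0.15 ± 0.085 SE, adjusted p = 0.134 and log2 0.12 ± 0.11 SE, adjusted p = 0.377. Without the CD47- CD3+CD28+TSP1 library at 3 h, SRSF2 was called in WT cells as well (log2 0.16, adjusted p = 0.0486). The SRSF3 call in CD47- cells was lost in 8 of 20 fits that each left out 1 library (log2 0.26 to 0.31, highest adjusted p = 0.0904), among them those without any 1 of the CD47- libraries at 6 h. SRSF10, a splicing repressor when dephosphorylated, was not called in CPM, at log2 -0.0071 ± 0.083 SE, adjusted p = 0.951 in WT and log2 -0.061 ± 0.083 SE, adjusted p = 0.562 in CD47- cells by edgeR. Per transcript length its CD47- means were 151 ± 10.5, 177 ± 8.11 and 121 ± 6.3 TPM at 1, 3 and 6 h. Its WT means were 165 ± 29 TPM at 1 h and 152 ± 8 TPM at 6 h. SRSF3 in CD47- cells was at 229 ± 13.6 and 223 ± 33.6 TPM at 1 and 6 h, and SRSF2 at 203 ± 11 and 231 ± 18.5 TPM. Changes over time in TPM were not tested.

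Part of the movement was present by 3 h. In WT cells 6 members were called at 3 h against 1 h, where 36.8% of all genes were: SRSF1, SRSF3 and SRSF7 rose by 0.42, 0.35 and 0.32 on the log2 scale, and SRSF5, SRSF11 and SRSF4 fell by 0.75, by 0.50 and by 0.23 (edgeR). The SRSF3 and SRSF7 calls were each lost in 4 of 20 fits that left out 1 library (highest adjusted p = 0.0763 and 0.0744), those without the WT untreated and TSP1 libraries at 1 h and the WT CD3+CD28+TSP1 library at 3 h for both, that without the WT CD3+CD28 library at 3 h for SRSF3, and that without the WT TSP1 library at 3 h for SRSF7. In CD47- cells 5 were called, where 39.3% of all genes were: SRSF1, SRSF2 and SRSF6 rose by 0.36, 0.29 and 0.28, and SRSF5 and SRSF11 fell by 0.58 and by 0.41. Without the CD47- CD3+CD28+TSP1 library at 3 h, 8 members were called in CD47- cells, SRSF7 (log2 0.45, adjusted p = 4.42e-05 by edgeR), SRSF3 (0.33) and SRSF10 (0.23) being added. The gain of SRSF2 was then 0.41 on the log2 scale. Leaving out the CD47- CD3+CD28 library at 3 h instead took away the SRSF2 call (adjusted p = 0.0643).

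Between 3 and 6 h, 4 members were called in WT cells, where 38.8% of all genes were, and 6 in CD47- cells, where 38.4% were. In WT, SRSF1 and SRSF6 rose by 0.35 and 0.36 on the log2 scale and SRSF4 and TRA2A fell by 0.17 and by 0.34 (edgeR). In CD47- cells SRSF7 and SRSF1 rose by 0.60 and 0.42, and TRA2A, SRSF4, SRSF5 and SRSF6 fell by 0.63, by 0.49, by 0.27 and by 0.20. SRSF6 thus moved in opposite directions in the lines over this interval. Leaving out single libraries took away the call of SRSF4 in WT in 7 of 20 fits (any 1 of the WT libraries at 3 h among them, highest adjusted p = 0.147), of TRA2A in WT in 1 (without the WT CD3+CD28 library at 3 h, adjusted p = 0.0608), of SRSF5 in CD47- cells in 12 (highest adjusted p = 0.195), and of SRSF6 in CD47- cells in 3 (without the CD3+CD28 library at 3 h or the CD3+CD28 or CD3+CD28+TSP1 library at 6 h, highest adjusted p = 0.0927). Without the CD47- CD3+CD28+TSP1 library at 3 h, SRSF7 in WT (log2 0.22) and SRSF10 in CD47- cells (log2 -0.29) were called as well, SRSF5 in CD47- cells fell by 0.43 (adjusted p = 0.000462 by edgeR), and SRSF7 in CD47- cells rose by 0.41.

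In TMM-scaled CPM, CD47- cells had less RNA of most SR splicing factors. Over all 20 libraries 6 of the 10 members were called, and all 6 were lower in CD47- cells, where 40.4% of all genes were called and 20.6% were called lower. The median log2 difference over the members was -0.35, against -0.01 over all genes. The 6 were SRSF10, SRSF2, SRSF3, SRSF11, TRA2A and SRSF5. SRSF1, SRSF2, SRSF3, SRSF4, SRSF10 and SRSF11 were lower in the CD47- library in 10 of 10 pairs matched for treatment and time. SRSF5 and TRA2A were lower in 9, while SRSF6 was higher in 5 and SRSF7 in 8. The share of all genes lower in every pair is not given here, so these pair counts have no background beside them. SRSF1 and SRSF4 were not called in the test over all 20 libraries.

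The most even difference was that of SRSF10. Its WT libraries were at 561, 517, 482 and 536 CPM at 1 h, 563, 546 and 553 CPM at 3 h and 517, 533 and 515 CPM at 6 h, and its CD47- libraries at 372, 421, 400.2 and 416 CPM at 1 h, 446, 356 and 488 CPM at 3 h and 386, 373 and 399 CPM at 6 h. At no time did the lines overlap, and the ratio of CD47- to WT was 0.762 (log2 -0.39 ± 0.06 SE, adjusted p = 1.49e-05 by edgeR). SRSF2 in WT cells was at 405, 479.7, 534 and 474 CPM at 1 h, 531, 482 and 531 CPM at 3 h and 538, 518 and 526 CPM at 6 h, and in CD47- cells at 320.0, 324, 322 and 310.2 CPM at 1 h, 423, 332 and 416 CPM at 3 h and 425, 434 and 415 CPM at 6 h. Its log2 difference was -0.43 ± 0.081 SE, adjusted p = 0.000165, and the lines did not overlap at any time. SRSF3 in WT cells was at 527, 735, 614 and 564 CPM at 1 h, 793, 822 and 714 CPM at 3 h and 677, 626 and 687 CPM at 6 h, and in CD47- cells at 448, 493, 461 and 445 CPM at 1 h, 553, 411 and 599 CPM at 3 h and 558, 559.9 and 556 CPM at 6 h. The lines were again separate at each time, with a log2 difference of -0.41 ± 0.089 SE, adjusted p = 0.000727 by edgeR.

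SRSF11, TRA2A and SRSF5 moved over time as well, so their spread over the 10 libraries of a line was wider. Their log2 differences were -0.33 ± 0.11 SE, adjusted p = 0.0191, -0.37 ± 0.12 SE, adjusted p = 0.018 and -0.46 ± 0.16 SE, adjusted p = 0.0296 by edgeR. SRSF1 (log2 -0.21 ± 0.15 SE, adjusted p = 0.262), SRSF4 (log2 -0.23 ± 0.10 SE, adjusted p = 0.0749), SRSF6 (log2 0.019 ± 0.077 SE, adjusted p = 0.869) and SRSF7 (log2 0.14 ± 0.15 SE, adjusted p = 0.477) did not pass. This test did not take time into account, and with time as a term in the fit 8 of the 10 members were called. The share of all genes called in that fit is not given here, so the count of 8 has no background beside it. The SRSF5 call was lost in 8 of 20 fits that left out 1 library (log2 -0.51 to -0.37, highest adjusted p = 0.0697), those without any 1 of the WT libraries at 1 h or of the CD47- libraries at 6 h, and that without the CD47- CD3+CD28+TSP1 library at 3 h (log2 -0.39, adjusted p = 0.0626). Within the 6 activated pairs alone SRSF10, SRSF2 and SRSF3 were called by edgeR (log2 -0.39, -0.43 and -0.47, adjusted p = 0.00559, 0.0089 and 0.00749). Within the 4 pairs without activation none was, at log2 values from -0.39 for SRSF2 to -0.22 for TRA2A. These sets of pairs differ in size, and their shares of all genes called are not given here. Whether the line difference depends on activation was not tested. On a per-length scale that sums to the same total in every library, the median of 13270 genes was 0.24 higher in CD47- cells on the log2 scale. Without subtracting it, SRSF1, SRSF3 and SRSF4 were at 0.007, 0.025 and 0.002, so SRSF3 was not lower, and SRSF6 and SRSF7 were at 0.27 and 0.30. SRSF5, SRSF2, SRSF10, SRSF11 and TRA2A were at -0.24, -0.17, -0.15, -0.14 and -0.08. Relative to that median the members stood at -0.48 (SRSF5), -0.42 (SRSF2), -0.39 (SRSF10), -0.39 (SRSF11), -0.32 (TRA2A), -0.24 (SRSF4), -0.23 (SRSF1), -0.22 (SRSF3), 0.03 (SRSF6) and 0.06 (SRSF7).

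**Figure D2:**
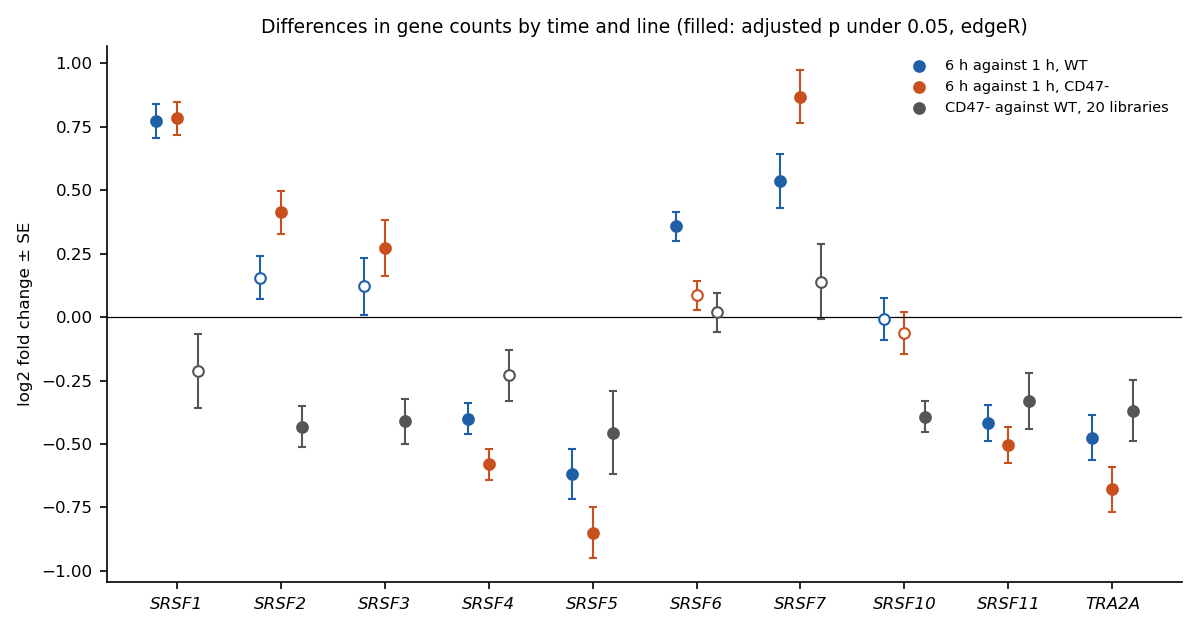
Log2 fold change ± SE of each SR splicing factor from 1 to 6 h in WT cells (blue) and in CD47- cells (orange), and between CD47- and WT over 20 libraries (grey). Filled points have an adjusted p under 0.05 by edgeR. SRSF1 and SRSF7 lie above 0 and SRSF4, SRSF5, SRSF11 and TRA2A below 0 over time in both lines, and 6 of the grey points, all below 0, are filled.

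Compared at each time separately, the lines differed in 8 members at 1 h, all lower in CD47- cells, where 48.4% of all genes were called. The differences ran from -0.57 for SRSF2 (adjusted p = 5.77e-06 by edgeR) to -0.20 for SRSF1 (adjusted p = 0.0129) on the log2 scale, and SRSF6 and SRSF7 were the members not called. At 3 h, 7 members were lower and SRSF6 was higher (log2 0.31 ± 0.062 SE, adjusted p = 0.000459 by edgeR), where 46.3% of all genes were called. SRSF3 and SRSF2 led the lower members at -0.58 and -0.40, or -0.41 and -0.27 without the CD47- CD3+CD28+TSP1 library. At 6 h, 8 members were lower and SRSF7 was higher (log2 0.36 ± 0.11 SE, adjusted p = 0.0129 by edgeR), where 46.6% of all genes were called. SRSF5 and TRA2A led the lower members at 6 h with -0.68 (adjusted p = 2.32e-05) and -0.56 (adjusted p = 6e-05), and SRSF6 was now lower (log2 -0.25 ± 0.062 SE, adjusted p = 0.00226). Of the 3 h calls, those of SRSF5 and TRA2A were lost without the CD47- CD3+CD28+TSP1 library (log2 -0.11 and -0.14, adjusted p = 0.325 and 0.204), and that of SRSF11 without the CD47- CD3+CD28 library (adjusted p = 0.066). The SRSF5 call at 3 h was lost in 7 of 20 fits in all, and the TRA2A call in 3, also without the WT CD3+CD28 or CD3+CD28+TSP1 library at 3 h. SRSF3 was not called at 6 h (adjusted p = 0.0931) but was without that CD3+CD28+TSP1 library (log2 -0.24, adjusted p = 0.0393). The 6 h call of SRSF1 was lost in 11 of 20 such fits (log2 -0.21 to -0.14, highest adjusted p = 0.168), any 1 of the CD47- libraries at 6 h among them.

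Whether the change over time itself differed between the lines was tested by interaction terms. For 3 h against 1 h no member was called by edgeR, where 4.45% of all genes were. There, 1 member, SRSF6, had an unadjusted p under 0.05 (log2 0.29 ± 0.083 SE, adjusted p = 0.0504), and DESeq2 and limma voom called 1 member each. Without the CD47- CD3+CD28+TSP1 library at 3 h the SRSF6 value was log2 0.35 with adjusted p = 0.00782. For 6 h against 1 h, SRSF6 was the member called (log2 -0.27 ± 0.082 SE, adjusted p = 0.0288 by edgeR), where 16.4% of all genes were called, and 4 members had an unadjusted p under 0.05. The sign is that of a smaller gain in CD47- than in WT cells. The call was lost with upper-quartile scaling, without the low-count filter and with a replicate block. It was also lost in 10 of 20 fits that left out 1 library, at log2 -0.29 to -0.22 and a highest adjusted p of 0.0883, any 1 of the CD47- libraries at 6 h among them.

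The treatments left no difference that passed in any member. CD3+CD28+TSP1 against TSP1 called no member in either line by edgeR, where 0.0919% of all genes were called in WT and 0% in CD47- cells. CD3+CD28 against untreated, and CD3+CD28+TSP1 against CD3+CD28, called 0% of all genes in each line and no member. DESeq2 and limma voom called no member either. At an unadjusted p under 0.05 there were 3 members for CD3+CD28 against untreated in WT, namely SRSF11 (log2 -0.27), SRSF2 (0.30) and SRSF4 (-0.21), and there was 1 member for CD3+CD28+TSP1 against TSP1 in each line, TRA2A in WT (0.17) and SRSF10 in CD47- cells (-0.20). For TSP1 added to CD3+CD28 in WT cells, SRSF3 had the widest distance from 0, at log2 -0.11 with a 95% interval of -0.33 to 0.11. The intervals leave room for changes of that size, and each contrast rests on 1 library per treatment and time. The untreated arm is 1 library per line in all, so its contrasts assume that a lone library varies like the others, and the WT untreated library is one that lay apart from its group in the SRSF11 share. For TSP1 added to CD3+CD28 in CD47- cells, the value of SRSF5 was log2 -0.19 with an interval of -0.37 to -0.01 (unadjusted p = 0.0548, adjusted p = 0.459 by edgeR). That of SRSF7 was log2 -0.18 with an interval of -0.40 to 0.04. These intervals come from the SE by a normal approximation and are narrower than the quasi-likelihood test allows.

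All members had counts in transcripts without a coding class, by which are meant those that the annotation lists as nonsense-mediated decay, retained intron or without a defined coding sequence, together with 1 unmatched SRSF4 isoform (0.253% of the gene's counts in WT at 1 h). Of the 117 isoforms, 43 were coding, 30 retained intron, 23 nonsense-mediated decay and 20 without a coding sequence, and 1 was not matched. In WT cells at 1 h the share of such transcripts in the gene's counts was 46.5 ± 2.96% for SRSF5, 45.7 ± 4.72% for SRSF4, 45.4 ± 3.43% for SRSF11 and 45.3 ± 0.625% for SRSF10 (SD, n = 4). It was 39.1 ± 1.94% for TRA2A, 27.98 ± 1.75% for SRSF7, 22.9 ± 5.51% for SRSF2 and 13.9 ± 0.404% for SRSF3. For SRSF6 and SRSF1 it was 8.57 ± 0.316% and 5.4 ± 1.15%.

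Most of the members whose share was called lost share with time. At 3 h against 1 h over both lines, 6 members were called, where 8.71% of 8298 genes were, and at 6 h against 1 h again 6, where 24.5% were. The test was an exact permutation of libraries within each line, two-sided, with 0.000816 as its smallest p, adjusted over the 8298 genes. The median difference over the members was -3.63 percentage points at 3 h and -4.29 at 6 h, against -0.40 and -0.86 over all genes. SRSF5 was the member called in the upward direction at both times.

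**Figure D3:**
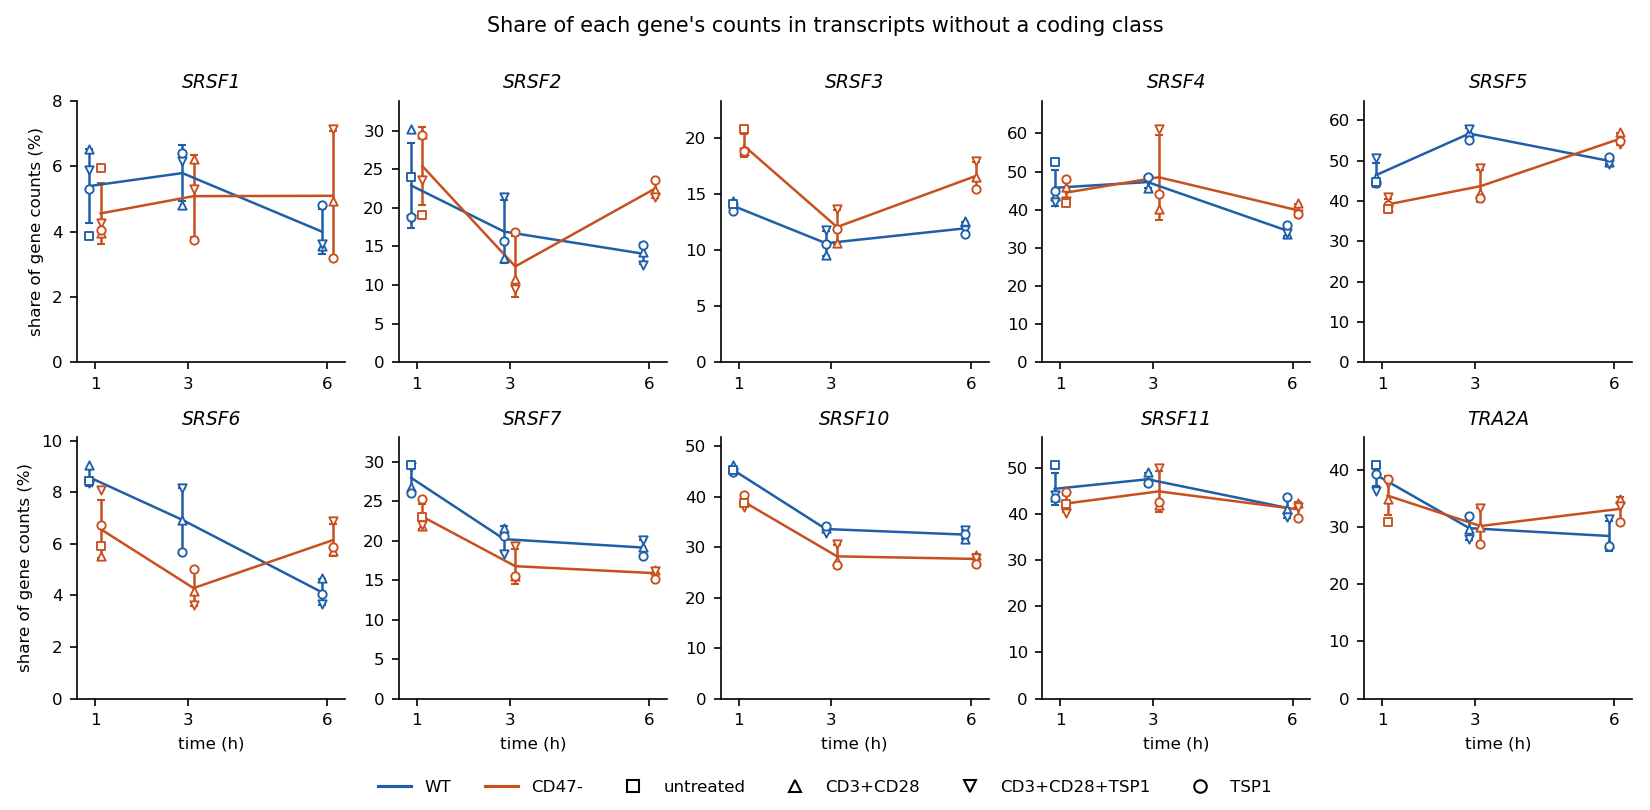
Share of each gene's counts, in percent (vertical axis, from 0), that lay in transcripts without a coding class, against time in hours, with WT cells in blue and CD47- cells in orange. Symbols are single libraries by treatment, and bars are SD about the group means (n = 4 at 1 h, n = 3 at 3 and 6 h). SRSF10 and SRSF7 drop between 1 and 3 h in both lines with no overlap, and SRSF5 rises.

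Over both lines together SRSF10 had the largest drop of the members, while in CD47- cells alone at 3 h the drop of SRSF2 was larger (-13.02 against -10.8 percentage points). That order turned without the CD47- CD3+CD28+TSP1 library at 3 h. The 3 h means were then 13.9% for SRSF2 and 26.9% for SRSF10, against 25.4% and 38.9% at 1 h. In WT cells the SRSF10 share was 45.2, 46.2, 44.9 and 44.9% at 1 h, 33.7, 32.9 and 34.1% at 3 h and 31.6, 33.3 and 32.6% at 6 h. In CD47- cells it was 38.7, 38.9, 37.97 and 40.2% at 1 h, 27.3, 30.7 and 26.5% at 3 h and 28.5, 27.9 and 26.6% at 6 h. Every library at 1 h lay above every later library of its line, and within each time all CD47- libraries lay below all WT libraries. The difference was -11.3 percentage points at 3 h (exact permutation p = 0.000816, adjusted p = 0.0221) and -12.1 at 6 h (exact permutation p = 0.000816, adjusted p = 0.00938). With all libraries the SRSF10 total was called over time in neither line, while its coding counts were higher and the others lower at the later times. Without the CD47- CD3+CD28+TSP1 library at 3 h, the total in CD47- cells was called higher at 3 h against 1 h (log2 0.23). It was then called lower at 6 h against 3 h (log2 -0.29). In WT cells the coding transcripts had means of 287 ± 18.6, 368 ± 4.54 and 352 ± 4.39 CPM at 1, 3 and 6 h and the others 238 ± 15.5, 186 ± 5.65 and 169 ± 7.35 CPM. In CD47- cells the coding means were 246 ± 12.5, 309.8 ± 57.1 and 279 ± 12.5 CPM and the others 157 ± 10.8, 120.1 ± 10.1 and 107 ± 3.03 CPM. With counts divided by transcript length the drops were -16.4 and -15.8 percentage points.

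SRSF7 followed a like course. Its share was 29.6, 26.9, 29.3 and 26.1% at 1 h, 21.6, 18.4 and 20.6% at 3 h and 19.3, 20.1 and 18.1% at 6 h in WT, and 23.1, 21.9, 22.02 and 25.3% at 1 h, 15.5, 19.3 and 15.5% at 3 h and 16.4, 16.1 and 15.2% at 6 h in CD47- cells. All 1 h libraries lay above the later ones of their line. The differences were -7.03 and -8.01 percentage points at 3 and 6 h (exact permutation, adjusted p = 0.0221 and 0.00938). In WT cells the rise of the SRSF7 gene level lay in its coding transcripts, with means of 122 ± 13.2 CPM at 1 h and 198 ± 5.07 CPM at 6 h. In CD47- cells the coding means were 132 ± 4.799 and 264 ± 5.002 CPM, and the other transcripts were higher at 6 h as well. The other transcripts were at 47.2 ± 4.01 and 46.9 ± 1.89 CPM in WT and at 39.7 ± 3.302 and 49.98 ± 1.93 CPM in CD47- cells.

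SRSF5 went the other way. Its share without a coding class was 44.6, 46.1, 50.7 and 44.4% at 1 h, 57.05, 57.9 and 55.2% at 3 h and 49.7, 49.2 and 50.99% at 6 h in WT, and 38.04, 38.5, 41.03 and 38.96% at 1 h, 42.05, 48.1 and 40.8% at 3 h and 57.2, 54.2 and 54.9% at 6 h in CD47- cells. The highest shares thus stood at 3 h in WT and at 6 h in CD47- cells. The difference over both lines was 7.41 percentage points at 3 h (exact permutation, adjusted p = 0.0291) and 9.90 at 6 h (adjusted p = 0.0172). SRSF5 coding transcripts had WT means of 262 ± 28.8 CPM at 1 h and 159 ± 10.9 CPM at 6 h, and CD47- means of 219 ± 9.09 and 88.8 ± 1.44 CPM. Its other transcripts were lower at 6 h as well, with means of 227 ± 27.6 and 159 ± 5.21 CPM in WT and 141 ± 7.84 and 111 ± 5.697 CPM in CD47- cells, so the share was higher while both parts were lower. Within the lines the share differed by 10.3 points at 3 h and 3.51 at 6 h in WT (exact permutation p at 6 h = 0.114), and by 4.54 and 16.3 points in CD47- cells (exact permutation p at 6 h = 0.0286). The 3 h call was lost in 8 of 20 analyses that left out 1 library, among them any WT library at 3 h and the CD47- CD3+CD28+TSP1 library at 3 h (6.29 percentage points, adjusted p = 0.0537), and the 6 h call was lost with counts divided by transcript length (6.99, adjusted p = 0.0894). Counting decay and retained intron transcripts alone also ended the 3 h call (6.25, adjusted p = 0.0772).

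Of the other members, SRSF3 was called at both times (-5.28 and -2.33 percentage points, exact permutation, adjusted p = 0.0221 and 0.00938), as was TRA2A (-7.30 and -6.49, adjusted p = 0.0358 and 0.0351). The TRA2A difference at 6 h was -10.7 points in WT (exact permutation p = 0.0286, the smallest possible) and -2.32 in CD47- cells (exact permutation p = 0.314), and at 3 h it was -9.28 and -5.32. SRSF6 was called at 3 h (-1.97, adjusted p = 0.0221), which did not hold when decay and retained intron transcripts alone were counted (-0.14, adjusted p = 0.905), and SRSF4 at 6 h (-7.94, adjusted p = 0.00938; -11.2 in WT and -4.65 in CD47- cells, where the exact permutation p was 0.114). The SRSF4 share in WT cells was 52.6, 43.6, 41.9 and 44.9% at 1 h and 33.6, 33.9 and 36% at 6 h, and in CD47- cells 41.8, 45.8, 42.2 and 47.97% at 1 h and 41.7, 38.8 and 38.97% at 6 h. At 3 h the CD47- CD3+CD28+TSP1 library stood out at 61.2%, against 40.2% and 44.1% in the other two libraries. The TRA2A calls were lost in 12 and 10 of 20 analyses that left out 1 library, any WT library at 1 h included (highest adjusted p = 0.0692 and 0.0847). Both were also lost with counts divided by transcript length (-6.88 and -6.25 percentage points, adjusted p = 0.0575 and 0.0631), and the 3 h call with decay and retained intron transcripts alone (-6.52, adjusted p = 0.0558). The 6 h call of SRSF3 was lost with counts divided by transcript length (-1.27, adjusted p = 0.53). SRSF1, SRSF2 and SRSF11 were not called.

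Between the lines 2 members differed in share, where 4.21% of 8298 genes were called. The share of SRSF10 was lower in CD47- cells by 5.61 percentage points on average and that of SRSF3 higher by 3.97, each in 10 of 10 pairs matched for treatment and time (exact sign-flip permutation p = 0.00195, the smallest 10 pairs can give, adjusted p = 0.0464). SRSF3 shares in WT cells were 14.1, 14.4, 13.8 and 13.4% at 1 h, 9.53, 11.7 and 10.5% at 3 h and 12.6, 11.8 and 11.4% at 6 h. In CD47- cells they were 20.8, 18.8, 18.7 and 18.8% at 1 h, 10.7, 13.6 and 11.9% at 3 h and 16.5, 17.9 and 15.5% at 6 h. The lines were separate at 1 and 6 h and overlapped at 3 h. With any 1 pair left out neither call can hold, since 9 pairs give a larger smallest p (highest adjusted p = 0.0846, SRSF10 -5.99 to -5.39 and SRSF3 3.66 to 4.29 percentage points). Both calls were also lost with counts divided by transcript length (adjusted p = 0.0557 for SRSF10 and 0.155 for SRSF3) and with decay and retained intron transcripts alone (adjusted p = 0.0569 for each), and that of SRSF10 without pairing, 10 libraries against 10. SRSF7 was lower in 9 of 10 pairs by 3.96 points, with adjusted p = 0.0779 by the same exact test.

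In the tests of isoform level, among the single isoforms called over time, coding ones lay in both directions and those with a retained intron in 1 direction, though most retained intron isoforms were not called. Over time in WT cells 13 of 89 member isoforms were called at 3 h against 1 h, where 8.69% of 55450 isoforms were, and 30 at 6 h against 1 h, where 19.6% were (edgeR). In CD47- cells the counts were 18, where 9.53% were called, and 34, where 20.7% were. With 1 library left out the 3 h count in WT ranged from 10 to 20, and it was higher with a filter of 1 CPM. Of 25 retained intron isoforms, none was called higher in any of these contrasts. Among all retained intron isoforms 1% and 6.25% were called higher at 3 and 6 h in WT, and 1.56% and 5.94% in CD47- cells. A count of none of 25 thus lies near the background. Those called lower were 2 at 3 h in WT (2.91% of all 11742 retained intron isoforms were), 7 at 6 h in WT (6.69%), 4 at 3 h in CD47- cells (3.78%) and 7 at 6 h in CD47- cells (8.12%). Of 34 coding isoforms, 11 were higher and 4 lower at 6 h in WT, where 14.6% of all coding isoforms were higher and 10.6% lower. In CD47- cells 13 were higher and 7 lower, where 14.4% and 12.1% of all were. Between the lines 19 isoforms of 6 genes were called, all lower in CD47- cells, where 15.1% of all isoforms were called.

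The isoforms behind the SRSF10 shift were SRSF10-213, which keeps most of the AT-AC intron, and the coding SRSF10-204. SRSF10-213 was at 183, 175, 154 and 176 CPM at 1 h, 141, 142 and 144 CPM at 3 h and 126, 136 and 131 CPM at 6 h in WT, and at 101, 117, 109 and 123 CPM at 1 h, 90.8, 81.6 and 97.6 CPM at 3 h and 82.6, 78.2 and 79.4 CPM at 6 h in CD47- cells. It was among the most abundant transcripts of the gene, with group mean shares from 33.7% in WT at 1 h to 19.8% in CD47- cells at 6 h. From 1 to 6 h it fell by 0.39 on the log2 scale in WT (adjusted p = 0.00134 by edgeR) and by 0.49 in CD47- cells (adjusted p = 0.000181), and it was lower in CD47- than in WT cells by log2 -0.65 (adjusted p = 6.77e-05). SRSF10-204 was at 23.1, 25.6, 27.6 and 23.3 CPM at 1 h and 71.1, 60.3 and 64.5 CPM at 6 h in WT, and at 25.9, 19.2, 27.2 and 19.3 CPM and 69.5, 57.7 and 71.1 CPM in CD47- cells. No library at 6 h overlapped those at 1 h. Its mean share in the gene's counts was 4.91 ± 0.694% at 1 h and 12.3 ± 1.27% at 6 h in WT (SD, n = 4 and 3), and 5.79 ± 1.32% and 16.3 ± 1.23% for CD47-. SRSF10-214, the main coding transcript, was called over time in neither line (log2 0.08 and -0.03).

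Usage tests ask whether an isoform changed relative to the other isoforms of its gene. Over time they called 1 member isoform at 3 h in WT, where 0.513% of 49951 isoforms were called, 3 at 6 h in WT (1.6% of all), 4 at 3 h in CD47- cells (1.03%) and 1 at 6 h in CD47- cells (1.77%), all by edgeR. In every one of these contrasts a filter of 1 CPM or limma's diffSplice called several times as many, as given in the closing section. SRSF10-204 was called in each of these 4 contrasts, at log2 0.82, 0.92, 0.65 and 1.05 relative to the other SRSF10 isoforms (adjusted p = 0.000665, 1.63e-05, 0.0155 and 2.46e-07). None of the 4 calls at 3 h in CD47- cells, that of SRSF10-204 included, held without the CD47- CD3+CD28 library at 3 h, and 1 of the 3 calls at 6 h in WT was left without the CD3+CD28 or the TSP1 library of that group. In WT at 6 h the others were SRSF5-207, which keeps the whole of intron 5 (0.63, adjusted p = 0.0194), and the poison-exon isoform SRSF3-203 (-0.96, adjusted p = 0.0274). SRSF3-203 had group mean shares of 2.4% at 1 h and 0.937% at 6 h in WT. In CD47- cells at 3 h the others were the retained intron isoforms SRSF2-206 (-0.83, adjusted p = 0.00171) and SRSF2-209 (-0.73, adjusted p = 0.0295), and the coding isoform SRSF5-209 (-4.16, adjusted p = 0.00578). SRSF5-209 held under 1% of SRSF5 counts on average over the 20 libraries, so its large value is that of a minor isoform.

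**Figure D4:**
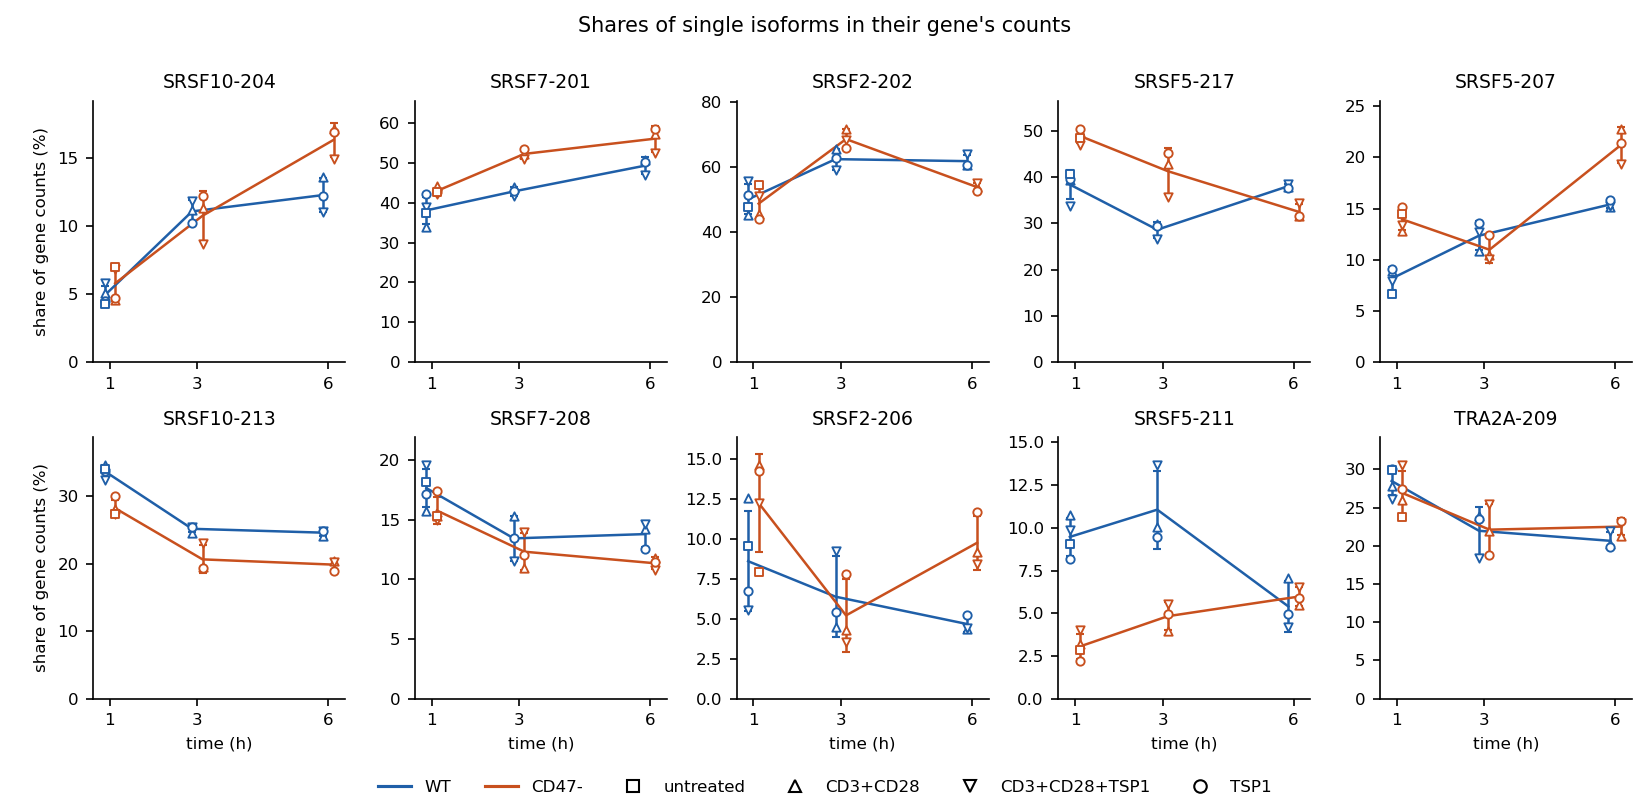
Share of single isoforms in their gene's counts, in percent (vertical axis, from 0), against time in hours, in WT (blue) and CD47- cells (orange). Symbols are single libraries by treatment, and bars are SD about the group means (n = 4 at 1 h, n = 3 at 3 and 6 h). SRSF10-204 climbs and SRSF10-213 drops in both lines, and SRSF5-211 is far higher in WT than in CD47- cells at 1 h and close to it at 6 h.

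Between the lines the usage test called SRSF5-211 and the retained intron isoform SRSF5-213, both lower in CD47- cells relative to the other SRSF5 isoforms (log2 -0.75, adjusted p = 0.00216, and -1.02, adjusted p = 0.00258, by edgeR), where 0.647% of all isoforms were called. SRSF5-211, the decay isoform whose exon begins inside intron 5, was at 39.6, 59.2, 46.3 and 36.7 CPM at 1 h, 31.2, 42.4 and 25.7 CPM at 3 h and 23.01, 14.3 and 15.2 CPM at 6 h in WT. In CD47- cells it was at 9.64, 11.8, 14.4 and 7.86 CPM at 1 h, 10.9, 10.5 and 13.8 CPM at 3 h and 11.7, 13.2 and 12.4 CPM at 6 h. In CPM all WT libraries were above all CD47- libraries at each time, by a margin that narrowed. The usage call was made over all libraries, and usage between the lines was not tested at single times. As a mean share of the gene's counts, SRSF5-211 was far higher in WT cells at 1 h but slightly higher in CD47- cells at 6 h. In the interaction test of 6 h against 1 h it was the member isoform called for usage (log2 1.24, adjusted p = 0.0101 by edgeR), where 0.438% of all isoforms were called, and for level (log2 1.56 ± 0.32 SE, adjusted p = 0.019), where 1.9% of all isoforms were. The level call depended on single libraries: no member isoform was called without the WT CD3+CD28+TSP1 or TSP1 library or the CD47- CD3+CD28+TSP1 library at 6 h, and 7 were without the CD47- CD3+CD28+TSP1 library at 3 h. With a replicate block no member isoform was called for level either. SRSF5-217, the main coding transcript of SRSF5, fell by 0.56 on the log2 scale from 1 to 6 h in WT (adjusted p = 0.0148) and by 1.36 in CD47- cells (adjusted p = 9.19e-06).

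Other abundant isoforms followed their gene or its share. SRSF7-201, the main coding transcript of SRSF7, had means of 62.5 ± 4.42 CPM at 1 h and 123 ± 6.25 CPM at 6 h in WT, and of 73.4 ± 2.32 and 185 ± 14.9 CPM in CD47- cells (log2 0.98 and 1.33, adjusted p = 2.81e-05 and 1.05e-06 by edgeR). The decay isoform SRSF7-208 gave 17.7% of the gene's counts at 1 h and 13.8% at 6 h in WT, and 15.8% and 11.3% in CD47- cells. SRSF1-205 rose by 1.27 on the log2 scale in WT and 0.94 in CD47- cells, and SRSF1-201, the more abundant coding SRSF1 transcript, by 0.69 and 0.80 (edgeR). SRSF4-207, which keeps the whole of SRSF4 intron 2 and a longer part of intron 1, fell by 0.76 in WT (adjusted p = 0.00132 by edgeR) and by 0.69 in CD47- cells (adjusted p = 0.00261). TRA2A-209, an intron-retaining isoform, fell by 0.86 in both lines (adjusted p = 0.000147 and 0.000145 by edgeR). SRSF11-214, which keeps part of SRSF11 intron 3, fell by 0.47 and by 0.46. SRSF2-202, the main coding transcript of SRSF2, rose by 0.52 in WT and 0.63 in CD47- cells, and its mean share at 3 h was 62.5% in WT and 68.7% in CD47- cells. SRSF6-201 held on average 93.1% of SRSF6 counts over the 20 libraries.

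Across the 20 libraries the members fell into those that shared a course. SRSF1 and SRSF7 had a Pearson correlation of 0.826 in log2(CPM + 1), SRSF4 and TRA2A of 0.905, SRSF5 and SRSF11 of 0.912, and SRSF2 and SRSF3 of 0.876, while SRSF4 and SRSF7 were at -0.895. These are descriptions over libraries that share line, time and depth. The genes outside the list whose profile was most like the mean profile of the members were FYTTD1 (0.956), STARD4 (0.951), CHCHD7 (0.95), TRAM1 (0.95) and SNX10 (0.946), by Pearson correlation over the 20 libraries.

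The kinases of SR proteins had calls in the lower direction alone at 3 and 6 h against 1 h. SRPK1, SRPK2 and CLK1 to CLK4 were all called lower at 3 h against 1 h in both lines, 6 of 6 (edgeR), where 36.8% and 39.3% of all genes were called. SRPK2 was at log2 -1.14 in WT and -0.76 in CD47- cells, CLK3 at -0.76 and -0.66, and CLK1 at -0.47 and -0.59. At 6 h, 4 of the 6 were lower in WT, led by CLK3 (-0.95), and 3 in CD47- cells, led by SRPK2 (-0.99), near the shares of all genes called (53.4% and 53.9%), and none was called between the lines over all libraries. Calls of this list were not counted from 3 to 6 h, when some means rose and others fell. Between those times SRPK2 went from 65.6 ± 4.44 to 106 ± 2.68 CPM in WT and from 83.4 ± 1.297 to 71.3 ± 3.26 CPM in CD47- cells (SD, n = 3). The list was chosen with earlier results of these data known.

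The other lists had calls in both directions in most contrasts. At 3 h against 1 h in WT, 3 of 10 further SR and SR-like proteins were higher and 2 lower, 1 of 19 hnRNP proteins was higher and 6 lower, 1 of 9 splice site recognition factors was higher and 5 lower, and 1 of 10 nonsense-mediated decay factors was lower. In CD47- cells these counts were 2 and 1, 2 and 5, 1 and 3, and 1 and 1. Of all genes 36.8% and 39.3% were called in these contrasts, so the counts lay near or below the background except for the splice site factors in WT and the SR-like proteins in WT, which lay above it. At 6 h the calls of all these lists lay at or near the share of all genes, 53.4% in WT and 53.9% in CD47- cells, or below it. Of 10 further SR and SR-like proteins tested, 3 were higher and 3 lower at 6 h in WT, and 2 higher and 3 lower in CD47- cells. SRSF9 (0.54 and 0.53) and RNPS1 (0.33 and 0.49), a component of the exon junction complex, rose in both lines. Between the lines, where 40.4% of all genes were called, the counts of these lists lay near or below that share. SREK1 (-0.45) and PNN (-0.44) were lower in CD47- cells. Of 19 hnRNP proteins, many of which oppose SR proteins, 4 were higher and 6 lower at 6 h in WT and 2 higher and 8 lower in CD47- cells. HNRNPM rose (1.02 and 0.70) and HNRNPLL, a T cell regulator of CD45 splicing, fell (-0.73 and -1.37). Between the lines 7 hnRNP genes were lower in CD47- cells, among them HNRNPA2B1 (-0.39), HNRNPU (-0.29) and HNRNPH1 (-0.48), and 1 was higher. Of 10 nonsense-mediated decay factors, 2 were higher and 1 lower at 6 h in WT and 2 higher and 3 lower in CD47- cells, with UPF1, the central helicase of decay, at 0.61 and 0.59, and 1 was higher and 2 lower between the lines. Of 9 splice site recognition factors, 2 were higher and 3 lower in WT and 3 higher and 2 lower in CD47- cells, with the U1 component SNRPA at -0.75 in WT and the U2AF subunit U2AF2 at 0.54 and 0.60, and 1 was higher and 3 lower between the lines. All of these values are log2 fold changes by edgeR.

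Some members share exon bases with other genes, which can divide or add reads. SRSF2 shares 823 exon bases with MFSD11 on the opposite strand, and since the strand setting of the counting is not given in the sources used here, reads from the 2 genes may not be told apart there. SRSF1 shares 1890 bases with ENSG00000266086 on the same strand and SRSF6 shares 654 with ENSG00000288000. Processed pseudogenes of the members took few counts, at most 29.41 in a library for SRSF6P2 and at most 7 for the others. Isoform counts are estimates by RSEM from reads that several transcripts share, so a shift between overlapping isoforms, such as SRSF5-207, SRSF5-211 and SRSF5-212, is less certain than a shift of the gene.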

How the data were processed

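RNA was measured in 20 libraries, 10 of WT and 10 of CD47- Jurkat cells. Per the labels and the study's methods, the authors used Cutadapt 1.18 for trimming and STAR 2.4.2a for alignment to GRCh38, and deposited expected counts per gene and per isoform from RSEM 1.3.3 with an earlier GENCODE release than the one used below; the setting for strand is not given in the sources used here. A further 2 columns of each table, which belong to none of the 20 samples, were left out. The study's methods mention batch removal, but which batches is not given in the sources used here, and no batch term was fitted.

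Expected counts were rounded and tested with edgeR 4.0.16 (R 4.3.3), TMM factors and the quasi-likelihood test, after a filter by line (minimum count 10, total 15) that kept 16327 genes and 55450 isoforms, with Benjamini-Hochberg adjustment and a threshold of 0.05. Line was tested alone, times and interactions in 6 line and time groups, and treatments with time as a term in each line. Isoform usage was tested with diffSpliceDGE over 49951 isoforms. Transcript classes and positions came from GENCODE v44 on GRCh38, which matched 229165 isoforms, so every share rests on the classes of that release. Shares were tested in 8298 genes (mean count of 50, mean share of 1%) by exact sign-flip permutation over 10 pairs and by exact permutation within line (1225 arrangements, smallest p = 0.000816). Sequences were read from the GRCh38 reference, and TPM were computed from the deposited expected counts and transcript lengths.

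The members and related lists were chosen with earlier results of these data known. Genes named were the members, isoforms with at least 5% of the gene's counts on average or called for usage, and up to 4 called genes per list by smallest p. Alternatives were other normalizations (DESeq2 1.42.0, upper quartile), limma 3.58.1 voom, other filters, a replicate block, leaving out each library, and other definitions of the share. Simulated data were used to check the edgeR tests of line for genes and of 6 h against 1 h in WT for genes, isoforms and usage. The share tests of line and of 6 h against 1 h were checked likewise. Interactions, treatment contrasts, 3 h contrasts and the other packages were not checked in this way. Library depth ran from 16107921 to 31737616 counts, which limits precision for isoforms of low counts.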

Additional observations from a re-analysis of the deposited data

Results flagged for a closer look

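Among 20 sets of 4 libraries of shares of transcripts without a coding class, 4 had a single library far from the others, and among 20 sets of gene levels none had, where chance alone marks about 1 in 20. In CD47- cells at 1 h the untreated library had a share of 5.94% for SRSF1, against 3.96% to 4.28% in the other 3, and of 20.8% for SRSF3, against 18.71% to 18.78%. In WT cells at 1 h the CD3+CD28 library had a share of 9.05% for SRSF6, against 8.37% to 8.45%, and the untreated library a share of 50.6% for SRSF11, against 43.4% to 44.2%. In all but the SRSF6 case the library was the untreated one.

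SRSF6 passed the test of a difference between the lines in its change from 1 to 6 h, with an interaction of log2 -0.27 (adjusted p = 0.0288 by edgeR), the gain being smaller in CD47- cells. This call was lost with upper-quartile scaling, without the low-count filter, with a replicate block, and in 10 of 20 fits that left out 1 library. The decay isoform SRSF5-211 passed the same test for its usage, with an interaction of log2 1.24 (adjusted p = 0.0101 by edgeR). From 1 to 6 h its usage value was log2 -0.58 in WT (adjusted p = 0.193) and 0.66 in CD47- cells (adjusted p = 0.0652), neither called alone.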

How the results depend on the processing

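Of 82 called values of single members, isoforms and shares, 52 kept their call under every alternative run for them and none reversed. Counts of members called for line were 3 within the 6 activated pairs and 0 within the 4 pairs without activation. The shares of all genes called in these sets are not given here, and a dependence on activation was not tested. At 3 h against 1 h in CD47- cells limma voom called 8 members. The interaction at 3 h called 1 member with DESeq2, limma voom, upper quartile scaling or a filter of 1 CPM, and that at 6 h called 0 with upper quartile scaling, no filter or the replicate block. For shares between the lines, division by transcript length called 0 members and counting decay and retained intron transcripts only called 0, and the latter called 3 at 3 h. For isoform levels a filter of 1 CPM called 23 at 3 h in WT and 5 in the interaction, which the block left at 0. For usage, the 1 CPM filter and limma's diffSplice called 4 and 5 isoforms for line, 4 and 12 at 3 h and 18 and 29 at 6 h in WT, 12 and 18 at 3 h and 10 and 14 at 6 h in CD47- cells, and 4 and 6 in the interaction. All of these are counts of members or member isoforms, and the shares of all genes or isoforms called under the same settings are not given here. A rise in the members can therefore not be told from a general rise in calls. The causes of these shifts were not tested.

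With each library left out in turn, members called ranged from 5 to 7 for line, 4 to 6 at 3 h, 7 to 8 at 6 h and 2 to 5 at 6 h against 3 h in WT, 4 to 8, 7 to 8 and 4 to 7 in CD47- cells, 8 to 8, 6 to 8 and 8 to 10 between the lines at 1, 3 and 6 h, 0 to 1 and 0 to 2 in the interactions, and 0 to 0 for treatments. Shares ranged from 0 to 0 for line, 4 to 6 at 3 h and 5 to 8 at 6 h. Isoforms ranged from 17 to 22 for line, 10 to 20 and 21 to 33 in WT, 13 to 19 and 25 to 35 in CD47- cells and 0 to 7 in the interaction, and usage from 2 to 2, 1 to 2, 1 to 5, 0 to 4, 1 to 2 and 1 to 2.

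Libraries of the same treatment and time in the lines did not deviate together (10 pairs, r from -0.365 to 0.231), so their match in treatment and time was not treated as a pairing in the fits. A replicate number stands for the same treatment in both lines at a given time, but for another treatment at 1 h than at 3 and 6 h. The replicate block called 8 members for line, 4 and 7 at 3 and 6 h in WT, 5 and 7 in CD47- cells and 0 in each interaction, 28 isoforms for line, and 3 isoforms for usage. The shares of all genes and isoforms called with the block are not given here. Depth limits mainly isoforms of low counts, and each condition was 1 library.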
